A study of Mus musculus with 4 samples.

Results

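The reelin pathway was followed through 7 genes, the ligand Reln, the receptors Lrp8 and Vldlr, the adaptors Dab1, Crk and Crkl, and the kinase Fyn. They were taken by name from the genes with a probe set that carries exactly 1 gene symbol, with the brightest probe set per gene. Each of the 7 had 1 such probe set, and all 7 were among the 11742 genes tested. The set was chosen by name with its siNF45 against siNTC differences known, the decrease of Reln above all, so the values of these 7 genes in that contrast are a description and no p-value is attached to them. The study profiled 4 samples of Beta-TC-6, a pancreatic beta cell line from mouse, each on its own Affymetrix Mouse Gene 2.1 ST array. In the siNF45 group (2 samples) the cells received a pool of RNA duplexes against NF45 through a lipid reagent, and in the siNTC group (2 samples) a negative control siRNA. All were grown in 25 mM glucose. The labels do not tell if replicates were transfected separately, so p-values rest on a spread between samples that may be technical.

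Reelin is a large secreted glycoprotein best known for guiding the layering of neurons in the developing brain. It binds the lipoprotein receptors ApoER2 (encoded by Lrp8) and VLDLR, whose tails hold the adaptor Dab1. Clustering of the receptors lets Src family kinases, chiefly Fyn and Src, phosphorylate Dab1, which then recruits Crk and CrkL and, through the exchange factor encoded by Rapgef1, acts on the small GTPase Rap1, while another branch runs through PI3K and Akt.

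The stretch just upstream of the Reln start is shown because Reln is the member whose signal differed most, and the corresponding stretches of the receptors are set beside it for comparison. Each is the 250 bases before an annotated start in RefSeq on GRCm38.p6, read 5′ to 3′ on the strand of the gene, and for the receptors the most upstream annotated start was used. Capitals mark GC boxes, here the letters GGGCGG on either strand, a motif known to bind the transcription factor Sp1. The windows lie at chr5:22344706-22344955 on the minus strand for Reln, at chr4:107802635-107802884 on the plus strand for Lrp8 and at chr19:27216234-27216483 on the plus strand for Vldlr.
Reln: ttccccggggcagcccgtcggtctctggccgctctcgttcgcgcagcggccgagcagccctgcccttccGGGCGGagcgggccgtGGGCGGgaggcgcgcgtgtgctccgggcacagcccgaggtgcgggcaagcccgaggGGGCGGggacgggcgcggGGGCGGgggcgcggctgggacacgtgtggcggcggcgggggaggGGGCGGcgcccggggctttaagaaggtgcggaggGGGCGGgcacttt
Lrp8: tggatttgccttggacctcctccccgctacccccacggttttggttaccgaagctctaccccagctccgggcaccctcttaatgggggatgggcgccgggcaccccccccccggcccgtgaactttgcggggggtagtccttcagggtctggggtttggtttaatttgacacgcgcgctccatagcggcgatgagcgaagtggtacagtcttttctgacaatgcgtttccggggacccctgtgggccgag
Vldlr: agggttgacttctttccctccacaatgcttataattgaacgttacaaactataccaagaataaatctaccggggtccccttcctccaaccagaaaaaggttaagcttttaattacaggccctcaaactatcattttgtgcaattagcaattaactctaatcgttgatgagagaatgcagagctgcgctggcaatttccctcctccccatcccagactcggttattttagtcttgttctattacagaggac

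Of the 32851 upstream windows of the same length in the RefSeq table, 32.7% held at least 1 GC box, and the share with 6 or more was not counted. The Reln window held 6. It had 37 CpG dinucleotides, more than 97.8% of all windows, against a median of 6 over all windows, and a GC content of 80% against a median of 52.4%. Neither a CCAAT box (CCAAT) nor a TATA box (TATAAA) was among its letters on either strand. The printed windows of Lrp8 and Vldlr held none of the 3 motifs, with 18 and 5 CpG dinucleotides. A second Vldlr start further downstream had 18 CpG dinucleotides, 1 GC box and 1 CCAAT box. A richness in CpG was not limited to Reln among the members, as the second of the Dab1 windows had 40 CpG dinucleotides (more than 98.7% of all windows), a GC content of 78% and 1 GC box, while the first had 10 CpG dinucleotides, no GC box and 1 CCAAT box. Crk and Fyn had 1 GC box each and Crkl had 0. These matches describe the letters in the windows, and no binding or methylation was measured.

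The values analysed are the authors' deposited log2 expression values, and groups were compared with limma on all 11742 tested genes, a gene being called when its Benjamini-Hochberg adjusted p was under 0.05. Array medians over the tested genes were 3.72 and 3.60 in siNF45 and 3.82 and 3.76 in siNTC. Over all tested genes the median difference, siNF45 minus siNTC, was -0.07 on the log2 scale. Centring each array on that median adds 0.13 to the difference of every gene. Replicates differed by a median of 0.15 in each group. The targeted gene Ilf2, which encodes NF45, read 3.67 and 3.77 on the siNF45 arrays and 5.79 and 5.98 on the siNTC arrays, a 4.48-fold lower level with a limma adjusted p of 0.020. An exact two-sided permutation test gave p = 0.333, and no split of 2 arrays against 2 can give less.

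The ligand stood far apart from its receptors and adaptors. Reln read 3.66-fold lower in siNF45, while the receptor genes read 1.47-fold (Lrp8) and 1.33-fold (Vldlr) lower. None of the 6 other members was called. Reln was thus the 1 member of 7 called, among the 0.0766% of tested genes called lower in that fit, and 0 of 7 were called higher against 0.00852% of tested genes. By size of the decrease Reln ranked 6 among the 11742 tested genes. Since the contrast was known when the genes were chosen, nothing is read from these counts.

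**Figure D1:**
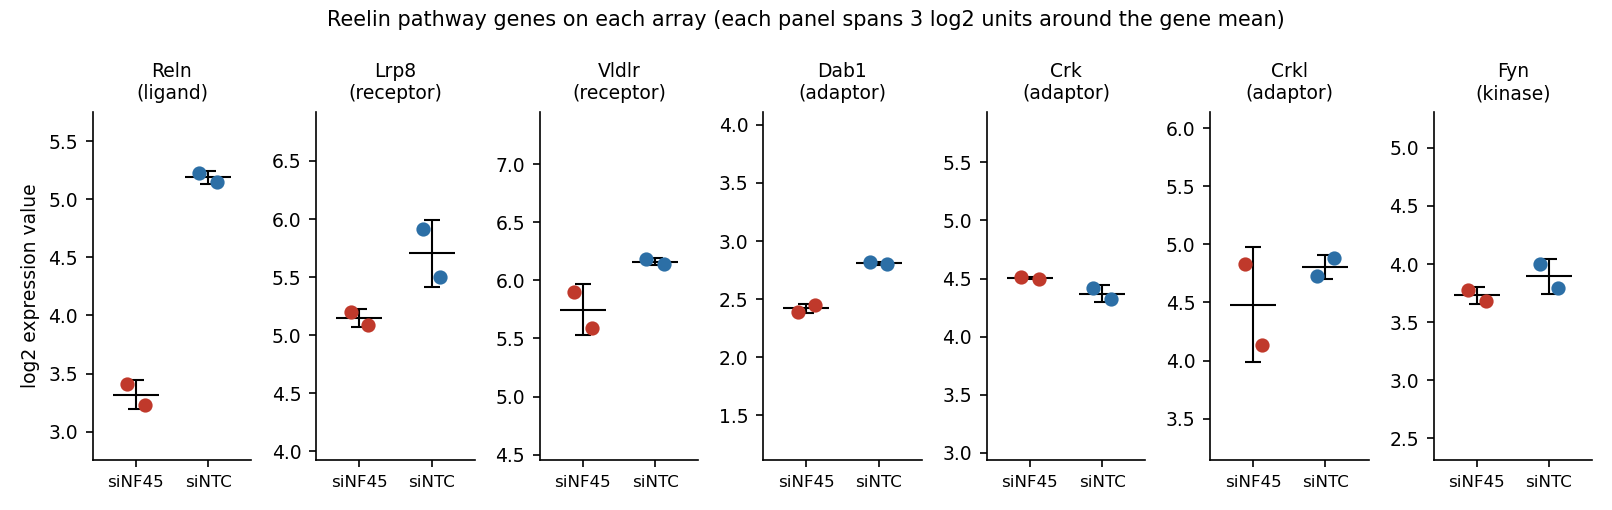
Log2 expression value (vertical axis, 3 log2 units in each panel) of the 7 reelin pathway genes on each array, siNF45 left and siNTC right. Points are arrays, the bar is the group mean and the whiskers are 1 SD (n = 2). Reln sits at 3.41 and 3.23 in siNF45 and 5.23 and 5.15 in siNTC, the siNF45 points of Lrp8, Vldlr and Dab1 lie below the siNTC points by smaller gaps, and those of Crk lie slightly above.

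Reln, the ligand, read 3.41 and 3.23 on the siNF45 arrays and 5.23 and 5.15 on the siNTC arrays. The groups did not overlap, and the gap between the nearest arrays of the groups was 1.74, set against replicate differences of 0.18 in siNF45 and 0.08 in siNTC. The group means were 3.32 ± 0.13 in siNF45 and 5.19 ± 0.06 in siNTC (SD, n = 2 each), a difference of -1.87 with a moderated standard error (SE) of 0.13 and a 95% interval of -2.19 to -1.55. Pairing each siNF45 array with each siNTC array in turn gave differences between -2 and -1.74. In a bulk measurement, fewer cells that make Reln and less Reln RNA per cell cannot be told apart.

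Lrp8, which encodes the receptor ApoER2, read 5.2 and 5.09 on the siNF45 arrays and 5.91 and 5.50 on the siNTC arrays. The siNF45 values were lower without overlap, and the siNTC arrays themselves differed by 0.41, more than the gap of 0.30 between the groups. Its means were 5.15 ± 0.08 in siNF45 and 5.71 ± 0.29 in siNTC (SD, n = 2 each), a difference of -0.56 (SE 0.17). Leaving out the higher siNTC array, replicate 1, reduced this difference to -0.36, over 1.5 times smaller, and leaving out replicate 2 gave -0.77.

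Vldlr, the other reelin receptor, also takes up triglyceride-rich lipoproteins in other tissues. It read 5.90 and 5.59 on the siNF45 arrays and 6.18 and 6.14 on the siNTC arrays. The siNTC arrays were nearly equal, the siNF45 arrays differed by 0.31, and the groups were 0.24 apart at their nearest points. The means were 5.75 ± 0.22 in siNF45 and 6.16 ± 0.03 in siNTC (SD, n = 2 each), a difference of -0.42 (SE 0.15). The difference was -0.26 without siNF45 replicate 2, the lower of the siNF45 arrays, and -0.57 without replicate 1. The receptors did not separate from each other, since the difference of Vldlr minus that of Lrp8 was 0.15 and ran from -0.14 to 0.43 over the 4 pairings of arrays.

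Dab1, the cytoplasmic adaptor that links the receptors to the kinases, was the member nearest to the signal filter of 1.65, with a mean of 2.62 over all arrays. It read 2.39 and 2.45 in siNF45 and 2.82 and 2.80 in siNTC. Replicates were close, differing by 0.06 in siNF45 and 0.02 in siNTC, and the gap between the groups was 0.35. The means were 2.42 ± 0.04 in siNF45 and 2.81 ± 0.01 in siNTC (SD, n = 2 each), and the difference was -0.39 (SE 0.12), a 1.31-fold lower level. Dab1 did not reach a filter at the 70th percentile of all probe sets.

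The paralogous adaptors Crk and Crkl, which bind phosphorylated Dab1, were not separated by these arrays, since the difference of Crkl minus that of Crk was -0.46 and ran from -0.93 to 0.01 over the 4 pairings. Crk read 4.51 and 4.50 on the siNF45 arrays and 4.42 and 4.32 on the siNTC arrays, slightly higher in siNF45 with no overlap and a difference of 0.14 (SE 0.12, 95% interval -0.16 to 0.43). Crkl read 4.83 and 4.13 in siNF45 and 4.73 and 4.88 in siNTC. The siNF45 arrays of Crkl differed by 0.70 and enclosed a siNTC value, so the groups overlapped. Its difference was -0.33 (SE 0.24, 95% interval -0.92 to 0.27). Without siNF45 replicate 2 the difference of Crkl was 0.03, and without siNF45 replicate 1 it was -0.68.

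Fyn, the Src family kinase that phosphorylates Dab1, read 3.78 and 3.68 on the siNF45 arrays and 4 and 3.79 on the siNTC arrays. The nearest arrays of the groups were 0.01 apart, and the difference was -0.17 (SE 0.13, 95% interval -0.50 to 0.17). After centring the arrays it was -0.04.

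Across the 7 members, 5 read lower without overlap (Reln, Lrp8, Vldlr, Dab1 and Fyn), 1 read higher without overlap (Crk) and 1 overlapped (Crkl). Among all tested genes, 47.8% had groups without overlap, 32.6% lower and 15.2% higher, and with the contrast known nothing is read from the members' count. The median difference of the members was -0.39, beside -0.07 over all tested genes. After centring the arrays, which raises every gene by 0.13, the same 6 members lay below 0, with Reln at -1.74, Lrp8 at -0.43, Vldlr at -0.29, Dab1 at -0.26, Crkl at -0.20 and Fyn at -0.04, and Crk at 0.27. On the siNF45 arrays replicate 2 read below replicate 1 for 6 of 7 members, and on the siNTC arrays also for 6 of 7. The share of all tested genes with this order was not counted. The array medians over tested genes stood in the same order within each group, and the part of this in the differences was not tested.

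**Figure D2:**
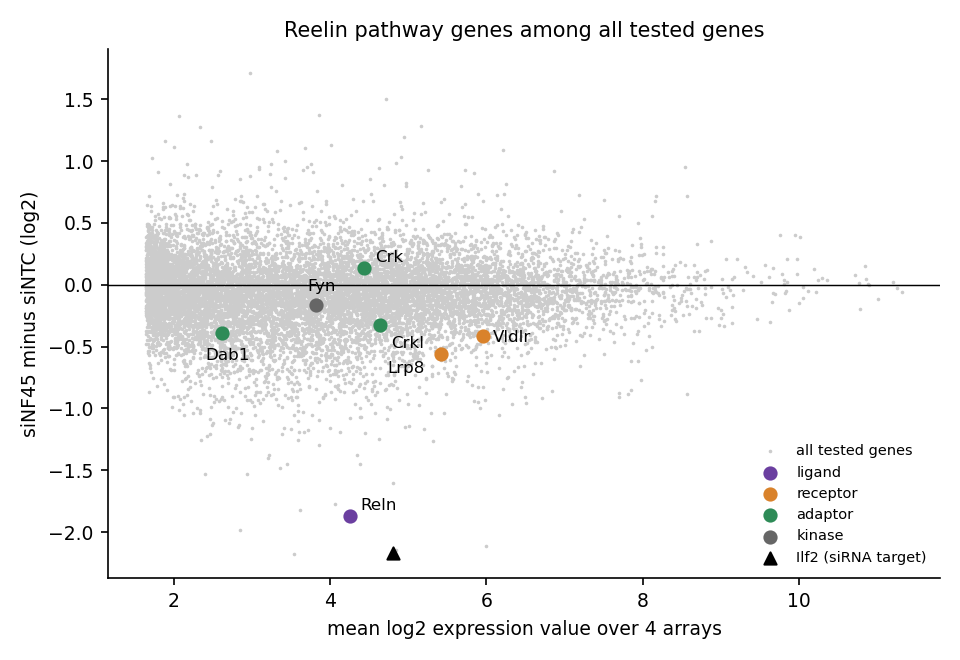
Difference between the groups (vertical axis, siNF45 minus siNTC, log2) against the mean log2 expression value over the 4 arrays (horizontal axis) for the 11742 tested genes, with the reelin pathway genes coloured by role and Ilf2 as a triangle. Reln at -1.87 lies near Ilf2 at -2.17 below the body of genes, and the other 6 members lie between -0.56 and 0.14 inside it.

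By role, the mean of the receptors was lower by 0.49 in siNF45, with the 4 pairings of arrays between -0.71 and -0.27. The mean of the adaptors and the kinase differed by -0.19 (pairings -0.30 to -0.07). It pools Crk, which read higher by 0.14, with Dab1, Fyn and Crkl, which read lower, and the groups of Crkl overlapped. Both means are as deposited, and centring the arrays adds 0.13 to each. A contrast taken within each array does not depend on how the arrays are centred. Measured this way, Reln fell by 1.38 more than the mean of its receptors, with pairings between -1.47 and -1.30, and by 1.58 more than the mean of the other 6 members, with pairings between -1.60 and -1.56. The last range, 1 value for each pairing of arrays, was narrower than the range of -2 to -1.74 for Reln alone. Such contrasts show unequal change between the ligand and the other members and give no test, since Reln was chosen for its decrease.

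Reln kept the lowest difference of the members under every alternative run. It stayed between -1.96 and -1.74 in the 12 alternatives run, and it was called in 7 of the 8 that used all 4 arrays. Reln was chosen for its decrease on these same arrays, so nothing is read from those calls. It was not called with the replicate number as a block, nor in any of the 4 fits that left out 1 array. Lrp8 ran from -0.77 to -0.36, Vldlr from -0.57 to -0.26, Fyn from -0.27 to -0.04, and Crk from 0.09 to 0.27 over the same 12. Dab1 ran from -0.42 to -0.26 in the 11 that kept it, and Crkl from -0.68 to 0.03.

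**Figure D3:**
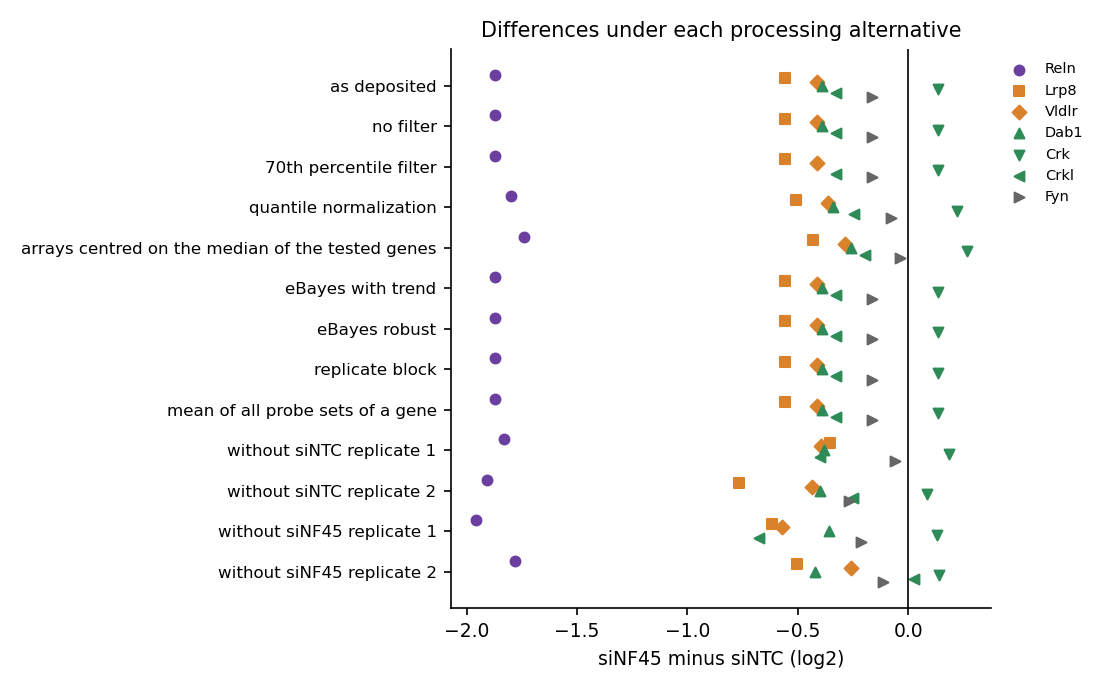
Difference between the groups (horizontal axis, siNF45 minus siNTC, log2) of each reelin pathway gene under each processing setting (rows). Reln keeps a distance from the other 6 genes in every row, between -1.96 and -1.74, and Crkl crosses 0 without siNF45 replicate 2.

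Other genes of the pathway were described from 10 lists of 72 genes in all, of which 63 had a probe set with 1 symbol and 54 were tested, 9 being under the signal filter. None of the 54 was called by limma over all genes, beside 0.0852% of all tested genes. At an unadjusted p under 0.05, 9 of 54 (16.7%) were lower and 0 higher, beside 13.2% lower, 4.02% higher and 17.2% in either direction over all tested genes. Their median difference was -0.09 (-0.07 over all tested genes), and 36 of 54 (66.7%) lay below 0, beside 61.3% of all tested genes. After centring the arrays the median was 0.05 with 25 of 54 (46.3%) below 0, beside 0.07 and 39.5% over all tested genes. The direction of the list thus turned with the scaling, as did that of all tested genes.

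Among other ligands of these receptors, Clu, which encodes the lipid-binding chaperone clusterin, had the largest difference of the 54. It read 4.15 and 3.95 in siNF45 and 5.10 and 5.08 in siNTC, a difference of -1.04 (SE 0.13, limma adjusted p = 0.072), with the siNF45 arrays well below the siNTC arrays. Clu was called, as the 1 gene of the lists, in 4 alternatives, namely the 70th percentile filter, quantile normalization, centring and eBayes with a trend. Selenop, a selenium transport protein that binds ApoER2, differed by 0.21 (SE 0.12) and Apoe by 0.15. Thbs1 was under the filter.

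The 5 tested relatives of the receptors in the LDL receptor family all lay below 0 as deposited, and 4 of 5 did after centring. Lrp10 read 4.58 and 4.37 in siNF45 and 5.15 and 5.10 in siNTC, a difference of -0.65 (SE 0.13, limma adjusted p = 0.128). The Wnt co-receptor Lrp6 differed by -0.23 (SE 0.13) at its brightest probe set, with its siNF45 arrays also below its siNTC arrays. With the probe sets of Lrp6 averaged the difference was -0.06. Lrp1b, Lrp2 and Lrp4 were under the filter. Of the proteases that cut reelin or activate those that do, Plat, the tissue plasminogen activator, differed by -0.59 (SE 0.23, limma adjusted p = 0.284). The proprotein convertase Furin differed by -0.16. Plat read 2.97 and 2.29 in siNF45 and 3.20 and 3.23 in siNTC, and its difference was -0.25 without siNF45 replicate 2 and -0.93 without replicate 1. Adamts3 and Adamts5, members of a metalloprotease family with reelin-cleaving enzymes, were under the filter.

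Of the receptor turnover genes, the sorting nexin Snx17 differed by -0.15 and the ubiquitin-conjugating enzyme Ube2d1 by 0.02, and none of the 3 tested reached an unadjusted p under 0.05. In the machinery that degrades phosphorylated Dab1, the adaptor Socs7 differed by -0.44 (SE 0.15, limma adjusted p = 0.234), or by -0.28 without siNF45 replicate 2. The RING protein Rnf7 differed by 0.43 (SE 0.23), a value that 1 array moved widely, to 0.12 without siNF45 replicate 1 and 0.75 without replicate 2. The scaffold Cul5 read 4.16 and 3.98 in siNF45 and 4.14 and 4 in siNTC, with equal means.

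Src, the kinase that acts beside Fyn on Dab1, read 1.81 and 2.03 in siNF45 and 2.44 and 2.46 in siNTC, a difference of -0.53 (SE 0.13, limma adjusted p = 0.153). Its values lay close to the filter of 1.65, and the groups did not overlap. The Src-inhibiting kinase Csk differed by -0.07, and by 0.06 after centring. Yes1, another Src family kinase, differed by -0.08 (SE 0.15), and by 0.06 after centring.

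In the Crk and Nck branch, 5 of 6 tested genes lay above 0, beside 4434 of 11742 over all tested genes. None of the 6 reached an unadjusted p under 0.05. The adaptor Nck1 differed by 0.29 (SE 0.20), or by 0.02 without siNTC replicate 1 and 0.55 without siNTC replicate 2. The actin regulator Wasl differed by -0.18 (SE 0.13) and Rapgef1, which activates Rap1, by 0.01 (SE 0.14). In the PI3K and Akt branch 7 of 8 tested genes lay below 0, and 4 of 8 after centring, beside 61.3% and 39.5% of all tested genes. The catalytic subunit Pik3cb read 2.35 and 2.47 in siNF45 and 3.17 and 2.78 in siNTC, a difference of -0.57 (SE 0.17, limma adjusted p = 0.197), or -0.37 without siNTC replicate 1. The regulatory subunit Pik3r1 differed by -0.27 (SE 0.12).

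Of the 11 cytoskeletal genes, 9 lay below 0, and 6 of 11 after centring. Mapt, which encodes the microtubule protein tau, read 4.51 and 4.35 in siNF45 and 5.10 and 5.02 in siNTC, without overlap and with a difference of -0.63 (SE 0.13, limma adjusted p = 0.128). Nde1, a partner of Lis1, differed by -0.39 (SE 0.14) and Pafah1b1, which encodes Lis1 itself, by less than its SE of 0.12. Among membrane partners the integrin subunit Itgb1 differed by -0.32 (SE 0.12, limma adjusted p = 0.265). The ephrin Efnb2 read 3.94 and 3.46 in siNF45 and 4.41 and 3.98 in siNTC, and differed by -0.50 (SE 0.22), with values from -0.74 to -0.26 when 1 array was left out.

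**Figure D4:**
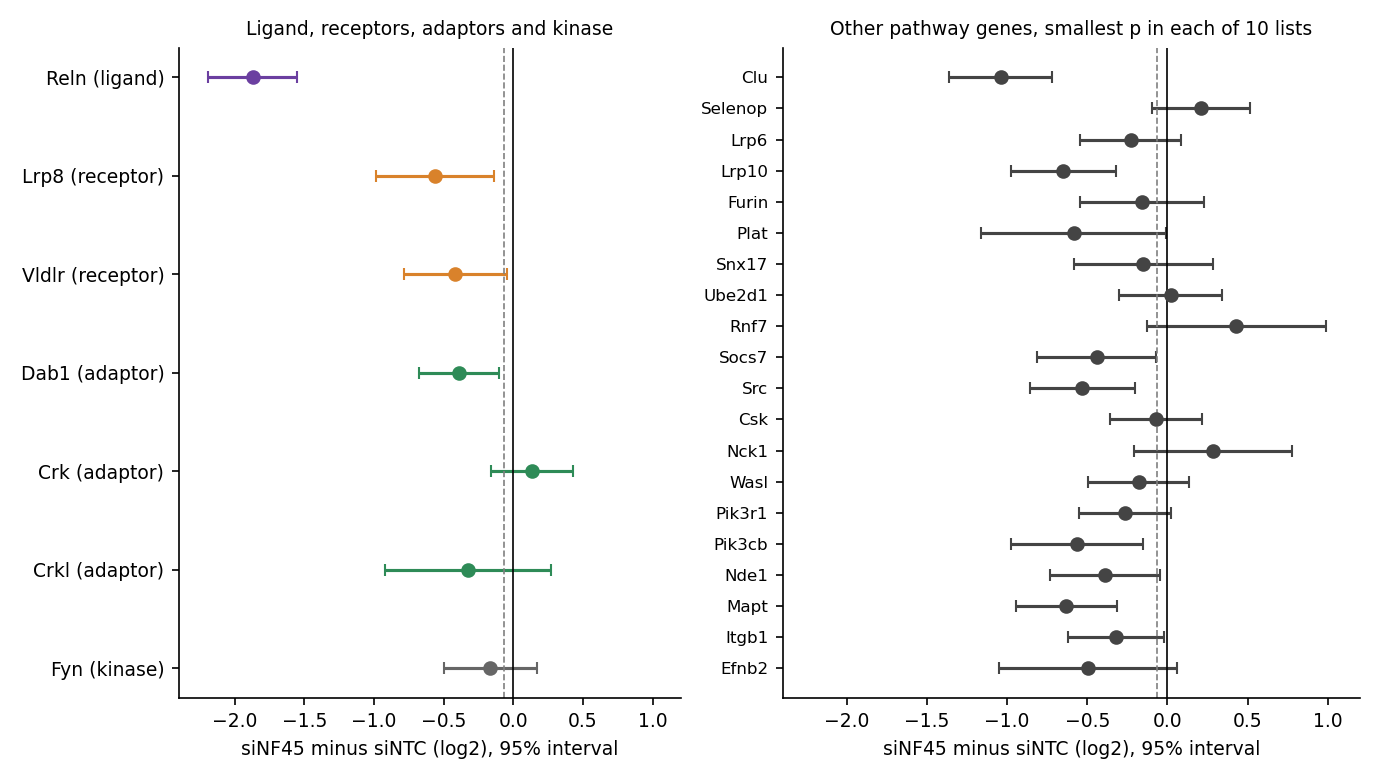
Difference between the groups (horizontal axis, siNF45 minus siNTC, log2) with its 95% interval from limma for the 7 members (left) and for the pathway genes with the smallest p in each list (right). The solid line is 0 and the dashed line the median of all tested genes (-0.07). Reln at -1.87 and Clu at -1.04 lie farthest to the left in their panels.

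Genes with a pattern like that of Reln were found by the root-mean-square (RMS) distance over the 4 arrays between values centred on the mean of each gene, among 11734 other tested genes. The median distance was 0.91 log2 units. The 5 nearest were Nexmif (RMS 0.085), the neuropeptide gene Gal (0.110), the protocadherin gene Pcdh7 (0.118), the GABA-synthesising enzyme gene Gad2 (0.147) and the histone gene H2bc12 (0.201). Pcdh7 read 3.29 and 3.06 in siNF45 and 5.14 and 4.76 in siNTC, a difference of -1.78 (SE 0.17), and was not called. Nexmif read 1.88 and 1.82 in siNF45 and 3.80 and 3.86 in siNTC, and Gad2 read 4.05 and 3.95 in siNF45 and 5.57 and 5.63 in siNTC. The distance takes in the size of the group difference as well as the spread within groups.

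**Figure D5:**
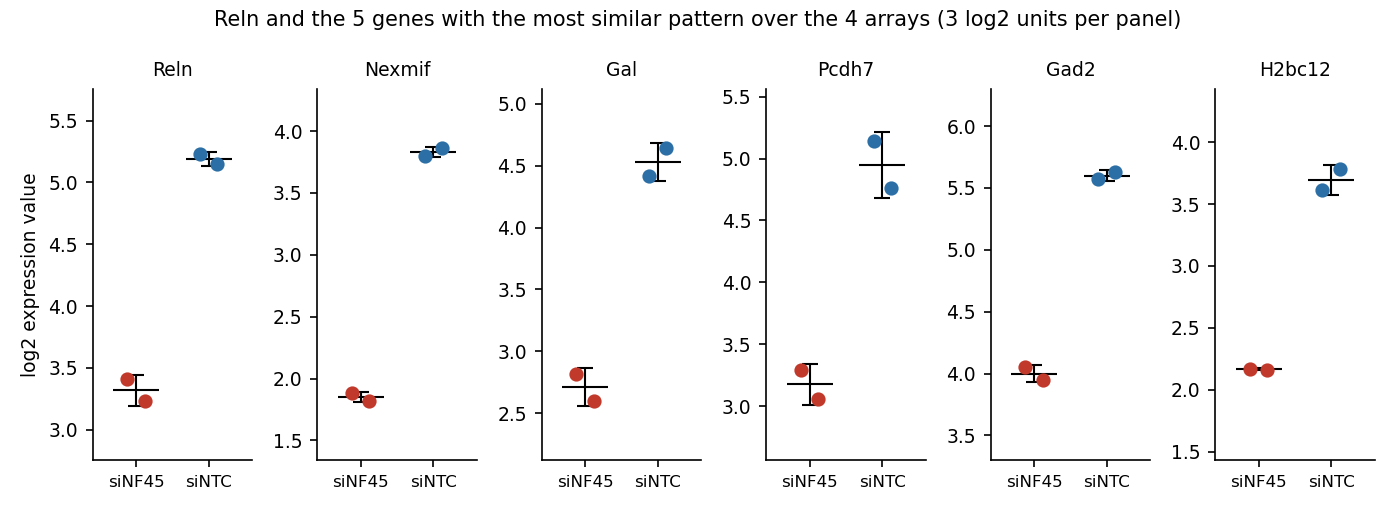
Log2 expression value (vertical axis, 3 log2 units in each panel) of Reln and the 5 genes nearest to it by RMS distance, siNF45 left and siNTC right, with points for arrays, bars for means and whiskers for 1 SD (n = 2). All 6 show siNF45 values below siNTC values without overlap, which for the 5 follows from their choice by distance. The widest spread is in Pcdh7 (5.14 and 4.76 in siNTC).

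Markers of the labelled beta cell identity were present, together with hormones of other islet cells. The 8 beta cell markers measured, among them Ins2, Iapp and Pdx1, were all above the filter, with a mean level of 7.50 to 7.52 on the siNF45 arrays and 7.47 to 7.53 on the siNTC arrays and differences between -0.17 and 0.18. None of the 8 markers of reelin-secreting neurons and glia, such as Trp73, Calb2 and Tbr1, reached the filter, at mean levels of 1.28 to 1.33 in siNF45 and 1.24 to 1.25 in siNTC. Of 10 mesenchymal, stellate and endothelial markers 2 were tested, at list means of 1.70 to 1.71 in siNF45 and 1.76 to 1.77 in siNTC. The 2 were Col1a2, at -0.19, and Lyve1, a marker of lymphatic endothelium, which read 4.76 and 4.89 in siNF45 and 5.62 and 5.23 in siNTC (difference -0.60, limma adjusted p = 0.180). The endothelial markers Pecam1, Cdh5 and Kdr were under the filter. Of the other islet cell markers 5 of 7 measured were tested, at list means of 3.49 to 3.64 in siNF45 and 3.76 in siNTC, and the delta cell hormone Sst read 8.18 and 8.07 in siNF45 and 9.19 and 8.83 in siNTC (difference -0.89, limma adjusted p = 0.103). The glucagon gene Gcg, at 7.61 and 7.53 in siNF45 and 7.75 and 7.43 in siNTC, differed by -0.02. The alpha cell factors Irx1 and Irx2 differed by -0.55 and -0.39, and the pancreatic polypeptide gene Ppy by 0.52. The list thus did not share a direction. Irx1 lay close to the signal filter, under it in siNF45 (1.5 and 1.28) and above it in siNTC (1.92 and 1.96). Exocrine and duct markers (1 of 5 tested, Krt7, which read 3.91 and 3.96 in siNF45 and 3.41 and 3.13 in siNTC, a difference of 0.67 with a limma adjusted p of 0.132) had list means of 1.75 to 1.81 in siNF45 and 1.62 to 1.71 in siNTC, and immune markers (1 of 4 tested) 1.29 to 1.38 in siNF45 and 1.5 to 1.52 in siNTC. The part of Lyve1, Sst, Krt7 or any of these lists in the Reln difference was not tested.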

How the data were processed

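Total RNA from 4 Beta-TC-6 samples was hybridised, 2 samples per group, after labelling of 250 ng each, per the labels' protocols. The deposited table holds a log2 value for each probe set on each array, which the authors made with Transcriptome Analysis Console, per the submitters' processing notes. The version, algorithm, background correction and log base are unstated, and log2 was taken from the range of 0.12 to 12.21, so all folds rest on it. Values are not centred per gene, and array medians were 1.66 and 1.66 in siNF45 and 1.64 and 1.64 in siNTC. The number of arrays limits the precision, and no detection call was used.

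Of 41345 probe sets, 23521 had 1 gene symbol, 1814 several and 16010 were unnamed here. Gene numbers matched a RefSeq table (GRCm38.p6) for 23328 of the 23521. The brightest probe set per gene was kept when its mean over all arrays reached the median of all probe sets (1.65). The test was limma 3.58.1 (R 4.3.3), with lmFit and eBayes and no covariate, and Benjamini-Hochberg adjustment over 11742 genes, with 2 residual and 3.69 prior degrees of freedom. The fit was tested on simulated data. Members and lists were chosen with earlier results of these data known. The text names the 7 members, Ilf2, the 2 genes of each pathway list with the smallest p, and the 5 genes nearest to Reln, and other pathway genes and markers named were chosen after their values were seen. Alternatives were other filters, quantile normalization, centring, eBayes with a trend or robust, a replicate block, averaging a gene's probe sets, and leaving out each array. Promoter windows are RefSeq sequences. Listed genes without a probe set of 1 symbol were not analysed here.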

Additional observations from a re-analysis of the deposited data

How the results depend on the processing

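As deposited 10 genes were called, 9 lower and 1 higher. The 70th percentile filter called 87 (70 lower, 17 higher), quantile normalization 62 (44 and 18), centring 172 (101 and 71) and eBayes with a trend 174 (134 and 40), and in these 4 settings 1 gene of the pathway lists, Clu, was called instead of 0. Without a filter 9 genes were called, and 10 each with robust eBayes or averaged probe sets. Reln was the 1 member called in these 7 settings, and nothing is read from this, since it was chosen for its decrease. The replicate numbers were not taken to pair the samples, since deviations of same-numbered samples from their group means correlated at 0.0062 over genes. With the replicate block, limma called 0 genes (0 lower, 0 higher) and 0 members, with 1909 genes at an unadjusted p under 0.05 and Ilf2 at -2.17 (limma adjusted p = 0.258). That fit has 1 residual degree of freedom fewer. Without 1 array, taking the lone sample to vary as the other group does, limma called 0 to 0 genes and 0 members, while 1236 to 1670 genes reached an unadjusted p under 0.05, and Ilf2 from -2.26 to -2.07 (limma adjusted p 0.307 to 0.471). Direction turned for Crkl without siNF45 replicate 2 (0.025, range over the left-out arrays -0.68 to 0.025), Furin without siNTC replicate 1 (0.015, range -0.34 to 0.015), Snx17 without siNTC replicate 2 (0.07, range -0.37 to 0.07), Ube2d1 without siNF45 replicate 1 (-0.08, range -0.08 to 0.12) and Csk after centring (0.06). The cause was not tested. The alternatives were tabulated for the 25 further genes that the naming rule gave, with 295 values, of which the 4 just listed besides Crkl turned. Other genes of the text were not run through all alternatives. Centring adds 0.13 to every difference, so those that lay below 0 by less than this turned, among them Yes1 (to 0.06), Gcg, Iapp and Pdx1. Of the genes at an unadjusted p under 0.05, 76.7% were lower as deposited (1550 of 2022) and 41.0% after centring (869 of 2120). With 2 arrays per group, differences near 0.15 are no larger than the median difference between replicates. That median compares single arrays, whereas the group differences compare means of 2 arrays, so the measures are unlike.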
